A study of Mus musculus with 6 samples.

Results

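The insulin-like growth factor (IGF) and insulin receptors with their first signal transducers were measured by RNA-seq in whole mouse embryos at E10.5, in mid-gestation. The set held 8 genes, listed by function with earlier results of these data known: the receptors *Igf1r*, *Insr* and *Igf2r*, the adaptors *Irs1*, *Irs2* and *Irs4*, and the kinases *Akt1* and *Akt2*. Each symbol matched a single Ensembl identifier among the 55401 in the count table, and all 8 were among the 16784 genes that passed the filter on low counts. Embryos were of 2 genotypes with 3 libraries each. Wild-type (WT) embryos had the unmodified *Igf2* locus, whose intron hosts the microRNA gene *Mir483*. The littermates called 5C carried 5 tandem copies of *Mir483* exchanged into that endogenous locus. The array was placed by recombinase-mediated cassette exchange in embryonic stem cells of C57BL/6N origin. It reached the embryos through chimeric males, that is on the paternal allele, the one from which *Igf2* is mainly expressed. The study's methods give C57BL/6J as the genetic background of the mouse work. Per the study's methods every library pooled 2 male embryos, so embryos were not measured singly.

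IGF1R and INSR are closely related receptor tyrosine kinases. IGF1R binds IGF1 and IGF2, INSR binds insulin and, in its fetal splice form, also IGF2, and both drive growth of the fetus. IGF2R is not a signalling kinase of this family: it carries IGF2 and enzymes tagged with mannose 6-phosphate to lysosomes, limits the amount of IGF2, and in the mouse is expressed mainly from the maternal allele. Activated IGF1R and INSR phosphorylate IRS adaptors, which recruit phosphoinositide 3-kinase (PI3K), and the lipid made by PI3K brings AKT kinases to the membrane, where they are activated and control protein synthesis, metabolism and survival.

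Libraries held 6357343 to 19151368 counts. The smallest level visible at this depth, 3 counts of a library total, lay between 0.157 and 0.472 CPM (read counts scaled to a common library total), a limit that covers counting error only. The edited gene, *Mir483*, had 2 to 11 counts in WT libraries and 36 to 85 in 5C libraries, in the direction of the labels (log2 fold change 3.05, adjusted p = 0.169 in edgeR). Listed markers of heart, neural tissue and of somites and limb buds were detected in full (4 of 4, 4 of 4 and 6 of 6). The cardiac sum was 165 to 259 CPM in WT and 142 to 159 CPM in 5C, and the neural sum was 158 to 174 CPM in WT and 185 to 193 CPM in 5C, so both sums were separated by genotype. All 10 listed yolk sac endoderm markers had counts. Their sum was 6143, 183 and 432 CPM in WT replicates 1, 2 and 3 and 120.1, 122.9 and 1193 CPM in 5C replicates 1, 2 and 3. All 7 decidual markers had counts, with sums of 10.4 to 49.0 CPM in WT and 12.5 to 54.0 CPM in 5C, as had all 6 trophoblast markers, with sums of 2.39 to 5.92 and 1.37 to 7.97 CPM, and all 5 primitive erythroid markers, with sums of 8987 to 12305 and 8194 to 16023 CPM. Y-linked counts (4 genes) were low in replicate 2 of each genotype, at 48 in WT and 1 in 5C, against 1211 to 3612 in the other libraries, although the methods call all embryos male. The part of these differences in the results was not tested. In whole embryos, fewer cells of a type and less RNA per cell cannot be told apart.

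The mature products of the array are shown first, since their seeds decide which of the 8 transcripts hold a match. Capitals mark the seed, bases 2 to 8 from the 5′ end. The sequences are from RefSeq (GRCm38.p6), where the hairpin lies on the minus strand of chromosome 7.
miR-483-3p: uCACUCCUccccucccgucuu
miR-483-5p: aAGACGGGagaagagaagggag
A match to bases 2 to 8 of miR-483-3p (AGGAGTG) was looked for on the sense strand of the 3′ UTR. The transcript used for each gene was the one with the longest coding sequence. Of the 8 genes, 1 had a match, *Irs1*, against 11.2% of the 13743 tested genes with an annotated 3′ UTR. A match to miR-483-5p (CCCGTCT) was in 0 of the 8, against 3.14% of tested genes. The median 3′ UTR of these tested genes was 1015 bases, and every member but *Akt1* (877 bases) had a longer one. A longer 3′ UTR leaves more room for a match, so these shares are not from genes of like length. The window around the *Irs1* match, in the last exon on the minus strand of chromosome 1 (chr1:82236189-82236216, GRCm38), begins 14 bases before the match, whose letters are in capitals.
*Irs1* site: tgaaacatctagttAGGAGTGaaaatgt
The match began at base 1424 of a 3′ UTR of 4525 bases and was followed by an A, the form called an 8mer. The longest 3′ UTR of the set, 7267 bases in *Igf1r*, had no match to either seed, and neither had the 1304 bases of *Igf2r*. A match in letters is a description and does not show that a site is used.

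Levels were set side by side as CPM per kilobase of annotated exon (RPKM), because the exons of these genes add up to between 4098 bases in *Akt1* and 16791 bases in *Igf1r*. *Akt1* was highest in RPKM, with a range of 64.7 to 70.2 over the 6 libraries. *Igf2r* came next at 40.1 to 58.4 RPKM, and its range did not meet that of *Akt1*. A middle group followed, holding *Igf1r* (7.36 to 10.1 RPKM), *Irs1* (7.51 to 10.2), *Irs2* (6.60 to 9.73), *Insr* (5.97 to 7.14) and *Akt2* (5.38 to 6.47), and each of these ranges overlapped the next in the order. *Igf1r* was above *Irs1* in 3 of 6 libraries, so the order of this pair was not fixed, and *Irs1* was above *Irs2* in 5 of 6. *Irs4*, at 1.75 to 2.29 RPKM, was lowest, below *Akt2* in 6 of 6 libraries. Dividing instead by the length of the transcript with the longest coding sequence kept *Akt1*, *Igf2r* and *Igf1r* first and *Irs4* last. It put *Insr* and *Akt2* above *Irs1* and *Irs2*. The order inside the middle group therefore depends on the length used.

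**Figure D1:**
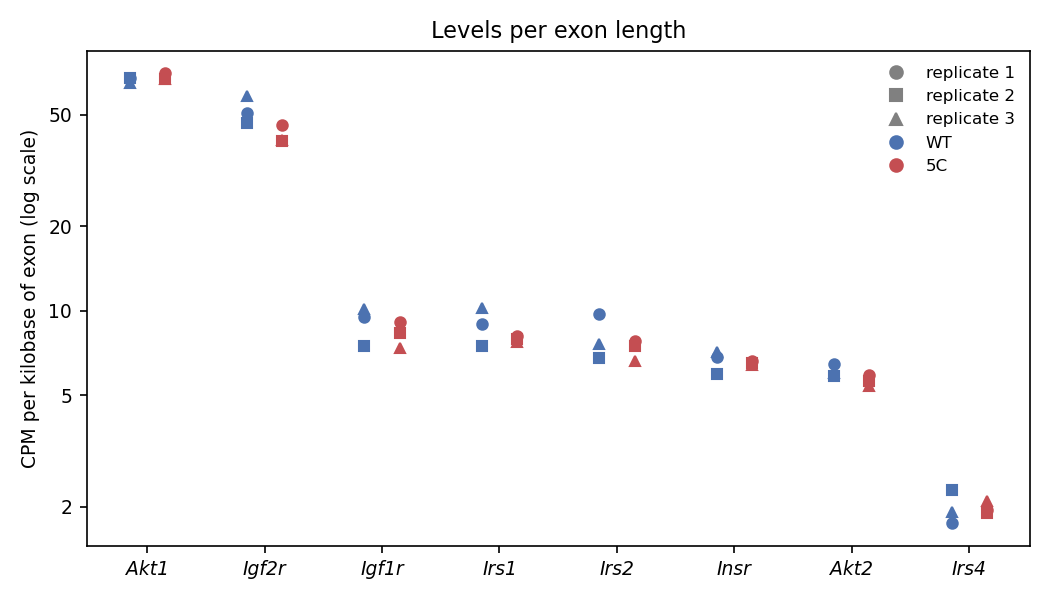
Levels of the 8 genes as CPM per kilobase of exon, on a log scale, with a point for each library (WT blue, 5C red, shapes for replicates). *Akt1* and *Igf2r* lie far above the middle group and *Irs4* lies below it in both genotypes.

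Within families, *Igf1r* took 53.5% to 58.6% of the summed RPKM of *Igf1r* and *Insr*. *Akt1* took 91.3% to 92.6% of the sum of *Akt1* and *Akt2*. Among the adaptors, *Irs1* took 43.9% to 51.8%, *Irs2* 38.4% to 47.5% and *Irs4* 8.55% to 13.8%.

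To ask whether the *Mir483* array altered the receiving side of the IGF axis, the 8 genes were compared between genotypes. In 5C, 7 of the 8 had a log2 fold change below 0, where 50.7% of all genes tested did, and their median was -0.12 against -0.0024 for all genes. *Irs4* was so near 0 that scaling by library size alone left 6 below 0. No member reached an adjusted p under 0.05 in edgeR's quasi-likelihood test, and 0% of all genes tested did. At an unadjusted p under 0.05 there was 1 member, *Igf2r*, which was lower in 5C, against 6.02% of all genes in either direction and 3.47% in that direction. A count of 1 among 8 genes is not a result about the set. *Igf2r* was likewise the 1 member whose genotypes did not overlap, against 11.4% of all genes and 5.10% with 5C below WT. The 95% confidence intervals, not adjusted for the number of genes, ran from 0.703-fold to 1.23-fold over the 8 genes, so none of them reached a change of 1.5-fold in either direction.

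**Figure D2:**
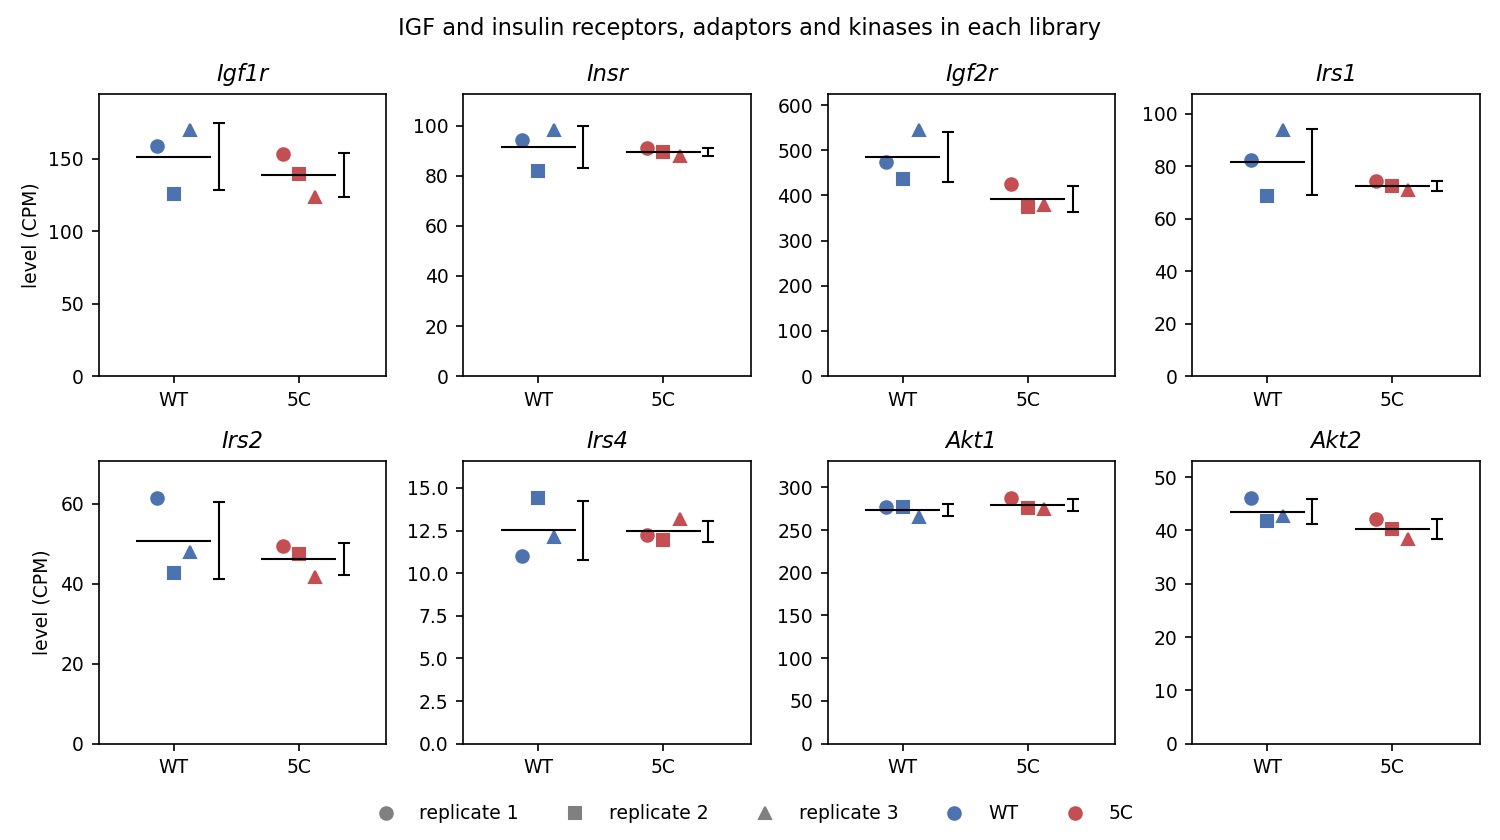
Level of each gene in CPM (y axes start at 0) in every library, with the mean as a line and ± 1 SD as a bar (n = 3 per genotype). The 3 WT libraries of *Igf2r* lie above its 3 5C libraries, and in each of the other 7 panels the genotypes overlap.

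*Igf2r* (ENSMUSG00000023830), the IGF2 clearance receptor, spans 12682406 to 12769664 of chromosome 17, minus strand, in GRCm38, the build of all positions given here. It was the best counted member, with 3409 to 9019 reads per library. Its level was 473, 436 and 544 CPM in WT replicates 1, 2 and 3 and 426, 373 and 379 CPM in 5C replicates 1, 2 and 3. Every 5C library was below every WT library, the nearest pair being WT replicate 2 and 5C replicate 1. WT averaged 484 ± 54.9 CPM and 5C averaged 393 ± 29.0 CPM (SD, n = 3 per genotype). The log2 fold change came to -0.30 ± 0.09 (standard error), or 0.811-fold with an interval of 0.703 to 0.937. Its unadjusted p in edgeR's quasi-likelihood test was 0.00921, rank 129 of 16784. The adjusted p was 0.781 (edgeR), so it was not called. In WT, replicate 3 was highest in *Igf2r* and replicate 1 in the yolk sac marker sum, and replicate 2 was lowest in both. The part of the yolk sac markers in this difference was not tested. Without WT replicate 1 the log2 fold change was -0.32, without WT replicate 3 it was -0.22, and without both replicate 2 libraries it was -0.34.

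The neighbours of *Igf2r* in its imprinted cluster were listed too. *Airn*, the long non-coding RNA that runs antisense to *Igf2r* and silences it on the paternal allele, measured 15.3, 17.8 and 21.7 CPM in WT, against 14.4, 13.9 and 15.5 in 5C. WT replicate 3 was highest for both transcripts, and for *Airn* the third 5C library overlapped the WT values. Its log2 fold change also came to -0.30 ± 0.14 (standard error), with an adjusted p of 0.781 (edgeR). The exons of *Airn* and *Igf2r* do not overlap in the annotation, although the genes do. *Slc22a2* and *Slc22a3*, organic cation transporters, had too few counts to be tested. *Slc22a2* had 75 counts in WT replicate 1, the library with the highest yolk sac markers, and 0 to 6 in the other 5.

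*Igf1r* (ENSMUSG00000005533; plus strand of chromosome 7, 67952827 to 68233668), the main receptor for both IGFs, measured 159, 126 and 170 CPM in WT, against 154, 139 and 124 in 5C. The lowest values of the genotypes, WT replicate 2 and 5C replicate 3, were almost level, and the groups overlapped. WT averaged 152 ± 22.8 CPM and 5C averaged 139 ± 14.97 CPM (SD, n = 3 per genotype). The log2 fold change of -0.13 ± 0.12 (standard error) had an adjusted p of 0.830 (edgeR), within the spread between replicates.

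*Insr* (ENSMUSG00000005534; minus strand of chromosome 8, 3122061 to 3279617), the insulin receptor, measured 94.1, 82.1 and 98.1 CPM in WT, against 91.0, 89.3 and 87.9 in 5C. All 5C values lay inside the WT range. The log2 fold change came to -0.03 ± 0.08 (standard error), with an adjusted p of 0.948 (edgeR). Its interval, 0.866-fold to 1.11-fold, held 1.

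Of the adaptors, *Irs1* (ENSMUSG00000055980; minus strand of chromosome 1, 82233101 to 82291416) measured 82.3, 68.7 and 93.7 CPM in WT, against 74.4, 72.3 and 70.8 in 5C. The 5C libraries lay close together inside the wide WT range. WT averaged 81.5 ± 12.5 CPM and 5C averaged 72.5 ± 1.77 CPM (SD, n = 3 per genotype). The log2 fold change of the only member with a miR-483-3p seed match was -0.16 ± 0.10 (standard error), with an adjusted p of 0.781 (edgeR). An annotated gene on the opposite strand, *Gm9747*, covers 30.9% of the *Irs1* exon bases. The libraries were strand-specific, but which strand column was counted was not stated, so the *Irs1* value is uncertain to that extent.

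*Irs2* (ENSMUSG00000038894; minus strand of chromosome 8, 10984681 to 11008458), the adaptor best known from liver and pancreatic beta cells, measured 61.5, 42.8 and 48.0 CPM in WT, against 49.5, 47.5 and 41.7 in 5C. WT replicate 1 stood above the other 5 libraries. The log2 fold change came to -0.14 ± 0.13 (standard error), with an adjusted p of 0.829 (edgeR). Without WT replicate 1 the sign turned, to 0.033, so the direction of *Irs2* rested on that library, which also held the highest yolk sac marker sum.

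*Irs4* (ENSMUSG00000054667; minus strand of the X chromosome, 141710998 to 141725263), an adaptor with narrow expression in the adult, had 76 to 210 reads per library, the fewest of the set. It measured 11.02, 14.4 and 12.1 CPM in WT, against 12.2, 11.95 and 13.2 in 5C. The lowest and the highest library were both WT. WT averaged 12.5 ± 1.74 CPM and 5C averaged 12.4 ± 0.636 CPM (SD, n = 3 per genotype). The log2 fold change came to -0.0046 ± 0.13 (standard error) and turned to 0.011 when scaled by library size alone, and its interval of 0.808-fold to 1.23-fold was the one that reached highest in the set.

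Of the kinases, *Akt1* (ENSMUSG00000001729; minus strand of chromosome 12, 112653821 to 112674884), the isoform tied to growth, was measured at 277, 277 and 265 CPM in WT, against 288, 275 and 275 in 5C. Its coefficient of variation, 2.55% in WT, was the lowest of the set there, while its 2.58% in 5C lay above the 1.704% of *Insr* and the 2.44% of *Irs1*. In the main edgeR fit, whose values are given here, it was the only member with a log2 fold change above 0. This change was 0.03 ± 0.06 (standard error), with an adjusted p of 0.916 (edgeR). *Akt2* (ENSMUSG00000004056; plus strand of chromosome 7, 27591552 to 27640826), the isoform tied to glucose uptake, measured 46.1, 41.7 and 42.8 CPM in WT, against 42.2, 40.2 and 38.4 in 5C. The groups overlapped by less than 1 CPM. Its log2 fold change came to -0.12 ± 0.08 (standard error), with an adjusted p of 0.789 (edgeR).

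**Figure D3:**
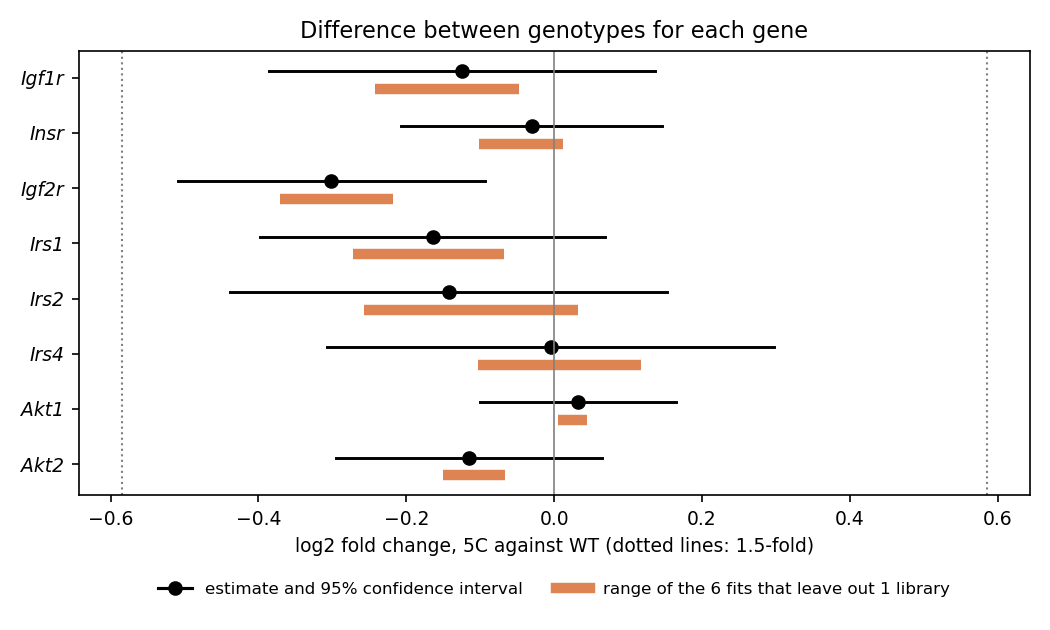
Log2 fold change of each gene between 5C and WT, with its 95% confidence interval in black and, in orange, the range found by omitting each of the 6 libraries in turn. The intervals all lie inside the dotted lines at 1.5-fold, and that of *Igf2r*, from -0.51 to -0.09, is the only one that does not hold 0.

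Ratios of counts within a library do not depend on scaling between libraries, and 4 were compared by an exact two-sided permutation test, in which 3 against 3 libraries cannot give a p under 0.1. *Igf2r* had 2.97, 3.46 and 3.20 counts per count of *Igf1r* in WT and 2.78, 2.68 and 3.07 in 5C. The difference of this clearance-to-signalling receptor ratio was -0.18 on the log2 scale, with overlap of the genotypes and a p of 0.2 in the exact test. The *Akt2* to *Akt1* ratio was 0.166, 0.151 and 0.161 in WT and 0.147, 0.146 and 0.140 in 5C. All 5C values were below all WT values, a log2 difference of -0.15 with an exact permutation p of 0.1, the smallest possible. The *Insr* to *Igf1r* and *Irs2* to *Irs1* ratios overlapped, with log2 differences of 0.09 and 0.04 and exact permutation p-values of 0.4 and 0.8. Leaving out 1 library, the *Insr* to *Igf1r* difference ran from 0.024 without 5C replicate 3 to 0.16 without 5C replicate 1. Adjusted over the 4 ratios, the exact p-values were 0.4 for *Igf2r* to *Igf1r* and for *Akt2* to *Akt1*, 0.533 for *Insr* to *Igf1r* and 0.8 for *Irs2* to *Irs1*.

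**Figure D4:**
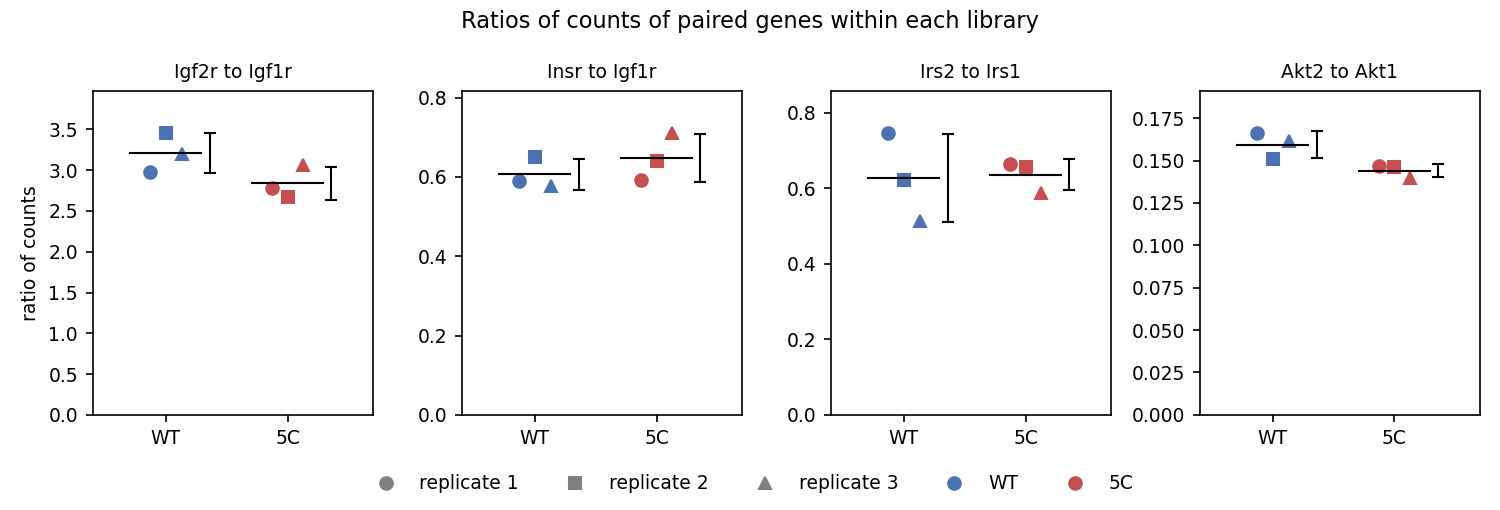
Ratio of the counts of 2 genes in each library, with the mean as a line and ± 1 SD as a bar (n = 3 per genotype, y axes start at 0). The genotypes are separated for *Akt2* to *Akt1*, where 5C spans 0.140 to 0.147 and WT 0.151 to 0.166, and overlap for the other 3 ratios.

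The members also varied among themselves. In WT, *Igf1r*, *Insr*, *Igf2r* and *Irs1* were all highest in replicate 3 and lowest in replicate 2. Over the 6 libraries, each of which gives both values of a pair, Pearson's r of log2 CPM was 0.92 for *Insr* with *Irs1*, 0.90 for *Igf1r* with *Insr* and 0.89 for *Igf1r* with *Irs1*. *Irs4* went the other way, with an r of -0.87 with *Irs2* and -0.80 with *Insr*. These values describe 6 points and were not tested. The coefficient of variation was larger in WT than in 5C for 7 of the 8 members, the exception being *Akt1*, and for 57.4% of all genes tested. Single libraries moved these values in both directions. Without WT replicate 2, *Igf1r* and *Irs1* joined *Igf2r* at an unadjusted p under 0.05 in edgeR, with log2 fold changes of -0.24, -0.27 and -0.37 and adjusted p-values of 0.468, 0.431 and 0.373, while 10.4% of all genes tested passed that mark. Without WT replicate 3 the log2 fold changes of *Igf1r*, *Irs1* and *Igf2r* shrank to -0.048, -0.068 and -0.22, and without 5C replicate 3 that of *Igf1r* was also -0.048.

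The transcripts most like *Igf1r* over the 6 libraries, among genes with a mean of at least 10 CPM, were *Nectin2*, *Eps15l1* and *Hk1*, with a Pearson's r of 0.998, 0.996 and 0.995. Those most like *Igf2r* were *Map2k7*, *Cad* and *Med12*, with an r of 0.991, 0.985 and 0.985. Among the 10349 candidates 303 had an r over 0.9 with *Igf1r* and 214 with *Igf2r*.

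The rest of the pathway was described from lists of 62 other genes, 59 of which were tested, since *Ins1*, *Ins2* and *Irs3* had 0 to 8 counts in any library. No listed gene was called. At an unadjusted p under 0.05, 5 were lower and 1 was higher in 5C, or 6 of 59, beside 6.02% of all genes. Their median log2 fold change was -0.02, and 33 of 59 were below 0, beside 50.7% of all genes. The genotypes did not overlap for 7 of 59, beside 11.4%. Among the ligands, *Igf1* measured 77.6, 63.7 and 72.9 CPM in WT, against 73.4, 96.9 and 77.2 in 5C, and *Igf2* measured 16.9, 8.41 and 17.1 CPM in WT, against 10.48, 10.1 and 9.75 in 5C. The *Igf2* value is uncertain, since 62.8% of its exon bases are shared with another gene on the same strand. Their log2 fold changes were 0.21 and -0.48, with an adjusted p of 0.781 for both (edgeR). The study itself reported *Igf2* RNA and IGF2 protein as lower in 5C embryos, by RNA-seq and mass spectrometry. It reported the same by RT-qPCR and western blot in other embryos of a later stage. Insulin transcripts were almost undetected, with 1 read of *Ins2* and 0 of *Ins1* over all 6 libraries.

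Of the other receptors, *M6pr*, the cation-dependent receptor that shares the mannose 6-phosphate ligands of IGF2R, measured 79.2 to 87.8 CPM in WT and 88.5 to 90.7 CPM in 5C, a log2 fold change of 0.10 with an adjusted p of 0.783 (edgeR). *Insrr*, an orphan relative of INSR, was near the limit of detection at 5 to 14 counts. Of 5 other adaptors tested, *Gab1*, a docking protein that binds PI3K, had the smallest p. It measured 47.2, 29.5 and 33.0 CPM in WT, against 27.2, 30.1 and 26.4 in 5C, so WT replicate 1 stood apart, and its log2 fold change was -0.41. *Sh2b1* and *Grb2* had log2 fold changes of -0.15 and 0.14.

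Among the 6 PI3K subunits, *Pik3r1*, the regulatory subunit p85 alpha, was 94.9, 83.5 and 89.7 CPM in WT, against 76.7, 80.0 and 80.6 in 5C. *Pik3ca*, the catalytic subunit p110 alpha, was 150 to 152 CPM in WT and 158 to 170 CPM in 5C. The genotypes were thus separated for both subunits and in opposite directions, with log2 fold changes of -0.18 and 0.11 and adjusted p-values of 0.781 (edgeR). *Pik3r3* had a log2 fold change of 0.06. Of 6 genes of AKT activation and the mTOR complexes, 0 had an unadjusted p under 0.05. *Mtor* and *Mlst8*, kinase and shared subunit of both complexes, had log2 fold changes of -0.12 and -0.13, and *Rictor*, of the complex that phosphorylates AKT, had 0.07.

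Of 9 inhibitors, *Phlpp2*, a phosphatase of AKT, had a log2 fold change of -0.21 (unadjusted p = 0.0419, edgeR). *Socs3*, a feedback inhibitor of cytokine and insulin signalling, had 0.17. Among 16 targets of AKT and mTOR, *Rptor*, the defining subunit of mTOR complex 1, had a log2 fold change of -0.20 with 59.5 to 69.0 CPM in 5C and 70.1 to 76.8 CPM in WT. *Eif4ebp2*, a repressor of translation, had -0.37 and WT libraries at 91.3, 68.7 and 118 CPM. *Foxo1*, a transcription factor that AKT keeps out of the nucleus, had -0.37 (unadjusted p = 0.0777, edgeR). In the RAS-MAPK arm 10 of 13 genes were below 0, beside 50.7% of all genes, with a median log2 fold change of -0.03. *Araf*, a RAF kinase, and *Sos1*, an exchange factor for RAS, had -0.16 and -0.10. All adjusted p-values in these lists were 0.781 or higher.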

How the data were processed

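Poly(A)-selected, strand-specific libraries were sequenced single-end. Per the study's methods the authors aligned reads with STAR to GRCm38 and what they deposited were unnormalized counts of reads for each Ensembl gene, with no filter. Genotype and replicate number came from the sample titles. Counts were analysed with edgeR 4.0.16 in R 4.3.3: filterByExpr on genotype, TMM scaling and the legacy quasi-likelihood F-test, two-sided, with Benjamini-Hochberg adjustment over all 16784 genes tested and a call at an adjusted p under 0.05. CPM used the TMM-scaled totals of tested genes. Symbols, positions and exon lengths came from GENCODE vM21 (GRCm38), which holds 55141 of the 55401 identifiers, and an exon length is the union over transcripts. The functions were tested on simulated data. The 8 genes and all lists were chosen with earlier results of these data known. Named genes were all members, ligands and *Igf2r* neighbours, up to 3 genes with the smallest p of each other list, and the 3 genes most correlated with *Igf1r* and with *Igf2r*. Some genes that this rule names are not reported here. Alternatives were other scalings, count filters and tests (DESeq2 1.42.0, limma-voom from limma 3.58.1, robust moderation), a replicate block, GC-content offsets and leaving out each library. Leaving out library pairs was added after the data were seen.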

Additional observations from a re-analysis of the deposited data

How the results depend on the processing

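No member was called under any of the 18 alternatives, and *Igf2r* stayed lower in 5C in each, with log2 fold changes from -0.37 to -0.22 and unadjusted p-values from 7.4e-04 (DESeq2) to 0.0409 (without 5C replicate 2). Its lowest adjusted p was 0.0602, without a count filter, a setting that called 416 genes and, of the pathway lists, 2 (*Gab1* and *Eif4ebp2*) where 0 were called otherwise. DESeq2 called 21 genes and robust moderation 3, none of them a member. *Irs4*, near 0, turned positive in 9 of the 18 alternatives. Among them were library size alone (0.011), no count filter (0.0083), limma-voom (0.019), GC-content offsets (0.012) and these offsets with the block (0.016). The others were the fits without WT replicate 2 (0.12), without 5C replicate 1 (0.0086), without 5C replicate 2 (0.018) and without both replicate 2 libraries (0.14). With WT replicate 1 and 5C replicate 3 left out, *Insr* was 0.0061 and *Irs2* 0.10. Leaving out each library in turn gave log2 fold changes ranging from -0.10 to 0.12 for *Irs4*, from -0.26 to 0.033 for *Irs2* from -0.10 to 0.012 for *Insr*, from -0.24 to -0.048 for *Igf1r*, from -0.27 to -0.068 for *Irs1*, from 0.0047 to 0.044 for *Akt1* and from -0.15 to -0.067 for *Akt2*, and the log2 difference of the *Irs2* to *Irs1* ratio went from -0.10 to 0.17 and that of *Insr* to *Igf1r* from 0.024 to 0.16. The causes were not tested. Under the replicate block *Igf2r* was -0.30 with an adjusted p of 0.888 (edgeR), and 0 members were called. The pairing was not borne out: deviations of same-numbered libraries correlated at -0.174, 0.202 and -0.166, and 2 of 6 libraries correlated best with their own number.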

Other observations

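*Grb10*, named after its values were seen, was abundant. This imprinted adaptor that binds and restrains IGF1R and INSR measured 1723, 1838 and 1785 CPM in WT, against 1724, 1720 and 1782 in 5C, above every member in CPM, and its log2 fold change came to -0.03 ± 0.06 (standard error).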
